A study of Homo sapiens with 6 samples.

Results

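BAAT and 7 acyl-CoA thioesterase genes, ACOT1, ACOT2, ACOT4, ACOT7, ACOT8, ACOT9 and ACOT13, were examined in WM164 melanoma cells, in libraries labelled as carrying a tethered MAFG and MITF dimer (T-MGM) and in GFP control libraries. The 8 genes were taken by name from a table of 58870 genes. BAAT was chosen because its fall was the largest among the genes named in an earlier reading of these data, and the ACOT genes because they belong to the same enzyme group. BAAT was therefore selected on its measured difference between libraries labelled T-MGM and GFP, and for all 8 genes that difference is described here without a test.

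WM164 is an established human melanoma cell line. In the study, cells received lentiviral constructs under the EF1α promoter and were selected with blasticidin. The control group (GFP, 3 libraries) overexpressed green fluorescent protein, and the other group (labelled T-MGM, 3 libraries) was given the melanocytic isoform of MITF and MAFG joined by a flexible linker, so that both transcription factors form a fixed pair. The study asked whether that pair alone changes melanoma cells, and nothing in the labels says whether the 3 libraries of a group came from separate cultures, so p-values measure only the spread between these libraries.

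Acyl-CoA thioesterases split fatty acyl-CoA esters into the free fatty acid and coenzyme A, and so set how much activated fatty acid is held in the cytosol, mitochondria and peroxisomes. BAAT, bile acid-CoA:amino acid N-acyltransferase, is a liver enzyme that joins bile acids to glycine or taurine before they are secreted, and it can also hydrolyse acyl-CoA. It shares the α/β-hydrolase fold of the type I thioesterases ACOT1, ACOT2, ACOT4 and ACOT6, whereas ACOT7, ACOT8, ACOT9 and ACOT13 belong to the type II group, which has another fold.

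BAAT lies on chromosome 9 (101354182 to 101385400, GRCh38, minus strand) and has 5 annotated transcripts in GENCODE. The window upstream of one of its RefSeq starts is shown because it is the only one of 12 upstream windows, for 7 of the 8 genes, that held an E-box of the kind MITF binds. It covers chr9:101383874-101384123 on the minus strand of GRCh38.p14, 250 bases ending just before the start, overlaps no BAAT exon, and lies inside 2 of the annotated transcripts. The sequence is written 5′ to 3′ on the gene's strand, with the E-box in capitals.
BAAT upstream window: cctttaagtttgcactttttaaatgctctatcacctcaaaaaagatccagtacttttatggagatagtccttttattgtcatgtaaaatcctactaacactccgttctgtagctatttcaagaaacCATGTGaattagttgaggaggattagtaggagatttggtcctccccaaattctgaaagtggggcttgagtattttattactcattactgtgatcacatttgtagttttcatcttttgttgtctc

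The E-box begins 124 bases before the start. The letters CATGTG, searched on both strands, stood in 9.4% of 35116 such windows of RefSeq promoters, and CACGTG, the other E-box searched, in 6.3% of them and in none of the 12 windows. TGCTGA, a part of the MAF recognition element, occurred in 1 of the 12 windows, at a start of ACOT7, and in 14% of all windows. TGACTCA, the AP-1 core, occurred in none of the 12 and in 4.2% of all windows. These are matches of letters in short windows, and binding was not measured in the data used here.

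ACOT1 and ACOT2 are near-identical neighbours on chromosome 14, which limits how reads can be assigned to them. Their coding sequences, from the GENCODE transcripts, matched at 1253 of 1266 bases (99.0%). The 60-base stretch below is shown because it holds 4 of the 13 differences, in capitals. It covers coding bases 363 to 422 of ACOT1 (chr14:73537784-73537843, plus strand) and 549 to 608 of ACOT2 (chr14:73569789-73569848, plus strand) on GRCh38.
ACOT1: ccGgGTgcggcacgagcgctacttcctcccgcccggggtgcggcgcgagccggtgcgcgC
ACOT2: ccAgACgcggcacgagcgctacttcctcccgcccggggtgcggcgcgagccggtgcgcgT

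A read of 100 bases could not tell the genes apart over 538 of the 1587 windows of that length in the ACOT1 transcript (33.9%), which also occur in ACOT2. ACOT4 shared 75.9% of aligned coding bases with ACOT2 and no 100-base window. BAAT was more distant, at 55.1% of aligned coding bases with ACOT1, 55.8% with ACOT2 and 57.4% with ACOT4.

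Total counts, the reads assigned to genes, were 35057239 to 38738065 per GFP library and 44577774 to 59250663 per library labelled T-MGM. Counts were divided by the size factor of each library (median of ratios) to give normalized counts, and fold changes are given on the log2 scale as T-MGM over GFP with the standard error (SE) of DESeq2. A gene counted as called if its adjusted p was at most 0.05 and it changed more than 2-fold. By that rule 885 of 19135 genes tested were called (4.63%), 624 higher (3.26%) and 261 lower (1.36%), and 7350 passed the adjusted p alone (38.4%). MAFG counts did not follow the labels (log2 fold change -0.06, SE 0.04, DESeq2 adjusted p = 0.236), and MITF differed by 0.08 (SE 0.02, adjusted p = 4.8e-07). Directions therefore rest on the labels. The summed level of 6 melanocyte markers was 963.87 to 976.92 TPM (abundance scaled for transcript length and depth) in GFP and 831.21 to 864.94 TPM in T-MGM libraries, and that of 8 hepatocyte markers 0.43 to 0.83 and 1.29 to 1.99 TPM. Of the melanocyte markers 3 passed higher, among them MITF at the 0.08 given above, and 3 lower, with a list median of -0.15. Of the 3 lower, DCT was called at -2.49 and MLANA had -0.68 (DESeq2 adjusted p = 4.61e-121). Of the hepatocyte markers ALB, TTR and FGB had at most 3 counts in every library, whereas SERPINA1, also made outside the liver, was called higher, from 33.9 ± 6.82 to 110 ± 20.9 normalized counts (SD, n = 3 each; 1.69, SE 0.27, DESeq2 adjusted p = 1.56e-09). SERPINA1 did not pass the adjusted p threshold in 1 of 16 alternative fits. The part of these markers in the BAAT result was not tested. In bulk RNA, fewer cells with a transcript and less of it per cell cannot be told apart.

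BAAT was near-uniform in the control libraries and low in the libraries labelled T-MGM. It had 568.4, 555.44 and 551.69 normalized counts in GFP libraries 1 to 3, and 11.86, 40.98 and 23.61 in T-MGM libraries 1 to 3. Every T-MGM library lay far below every GFP library, and the groups did not overlap. The means were 559 ± 8.77 and 25.5 ± 14.6 (SD, n = 3 each), and the log2 fold change was -4.46 (SE 0.42). In that fit the GFP level was 22.0-fold the T-MGM level, and 4.54% of the control level remained. The 2 nearest libraries of different groups were 13.5-fold apart and the 2 farthest 47.9-fold.

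The residual BAAT signal was uneven. Across T-MGM libraries the highest level was 3.46-fold the lowest, against 1.03-fold across GFP libraries. The counts behind these levels were 13, 42 and 32 reads in T-MGM libraries 1 to 3, against 474, 513 and 483 in GFP libraries. Exact Poisson intervals of 95%, which cover counting error only, ran from 6.92 to 22.2 reads for T-MGM library 1, from 30.3 to 56.8 for library 2 and from 21.9 to 45.2 for library 3. The first and second intervals did not meet, so libraries 1 and 2 differed beyond counting error, and BAAT was still detected above the floor of 3 counts in each library. Leaving out T-MGM library 1 gave a log2 fold change of -4.16 and leaving out library 2 gave -4.93.

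Among called genes averaging at least 100 normalized counts that did not overlap between groups, BAAT had the most negative log2 fold change. SV2A, a synaptic vesicle glycoprotein, came next at -3.99, and LIN7A, a scaffold protein of cell junctions, followed at -3.83. These values place BAAT at the threshold that chose it and test nothing.

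The most abundant of the 8 genes was ACOT7, a type II enzyme of the cytosol that is known for its high level in brain and for acting on long-chain acyl-CoA. It lies on chromosome 1 (6264269 to 6393767, minus strand). ACOT7 had 4592.78, 4644.88 and 4444.33 normalized counts in GFP libraries and 3339.91, 3505.52 and 3266.87 in T-MGM libraries. All 3 T-MGM libraries lay below all 3 GFP libraries. The means were 4561 ± 104 and 3371 ± 122 (SD, n = 3 each), and the log2 fold change was -0.44 (SE 0.03, 95% interval -0.50 to -0.37) or -26.2% on the linear scale.

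ACOT2 was the one gene of the 8 that stood higher in every T-MGM library. It encodes a mitochondrial type I enzyme and lies on chromosome 14 (73567620 to 73575658, plus strand). ACOT2 had 402.92, 378.95 and 372.36 normalized counts in GFP libraries and 515.45, 508.32 and 466.38 in T-MGM libraries, with no overlap. The means were 385 ± 16.1 and 497 ± 26.5 (SD, n = 3 each), and the log2 fold change was 0.37 (SE 0.09, 95% interval 0.18 to 0.55). In TPM the separation was lost, because GFP library 3 (5.93 TPM) stood above T-MGM library 3 (5.88 TPM), and the difference of log2 (TPM + 1) was 0.16.

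ACOT13, also called THEM2, a small type II enzyme associated with mitochondria, lies on chromosome 6 (24667035 to 24705065, plus strand). It had 524.03, 599.83 and 533.41 normalized counts in GFP libraries and 469.83, 504.41 and 493.68 in T-MGM libraries. The groups were close together but did not overlap, with means of 552 ± 41.3 and 489 ± 17.7 (SD, n = 3 each). The log2 fold change was -0.18 (SE 0.09, 95% interval -0.35 to -0.01), an interval not adjusted for the number of genes. In TPM the ACOT13 groups overlapped, at 3.55 to 4.72 TPM in GFP and 3.19 to 4.02 TPM in T-MGM libraries.

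The remaining type II genes overlapped between groups. ACOT9, a mitochondrial enzyme on chromosome X (23701055 to 23766475, minus strand), had 1345.46, 1421.61 and 1361.51 normalized counts in GFP libraries and 1258.05, 1287.86 and 1414.64 in T-MGM libraries. Its log2 fold change was -0.06 (SE 0.06, 95% interval -0.17 to 0.05). ACOT8, a peroxisomal enzyme on chromosome 20 (45841721 to 45857405, minus strand), had 344.16, 408.19 and 430.61 normalized counts in GFP libraries and 426.95, 370.75 and 460.48 in T-MGM libraries. Its log2 fold change was 0.09 (SE 0.11, 95% interval -0.12 to 0.31), and its sign turned in TPM, at -0.01. Neither gene showed a difference larger than the spread between libraries, and the interval of neither reached the value of ACOT7.

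**Figure D1:**
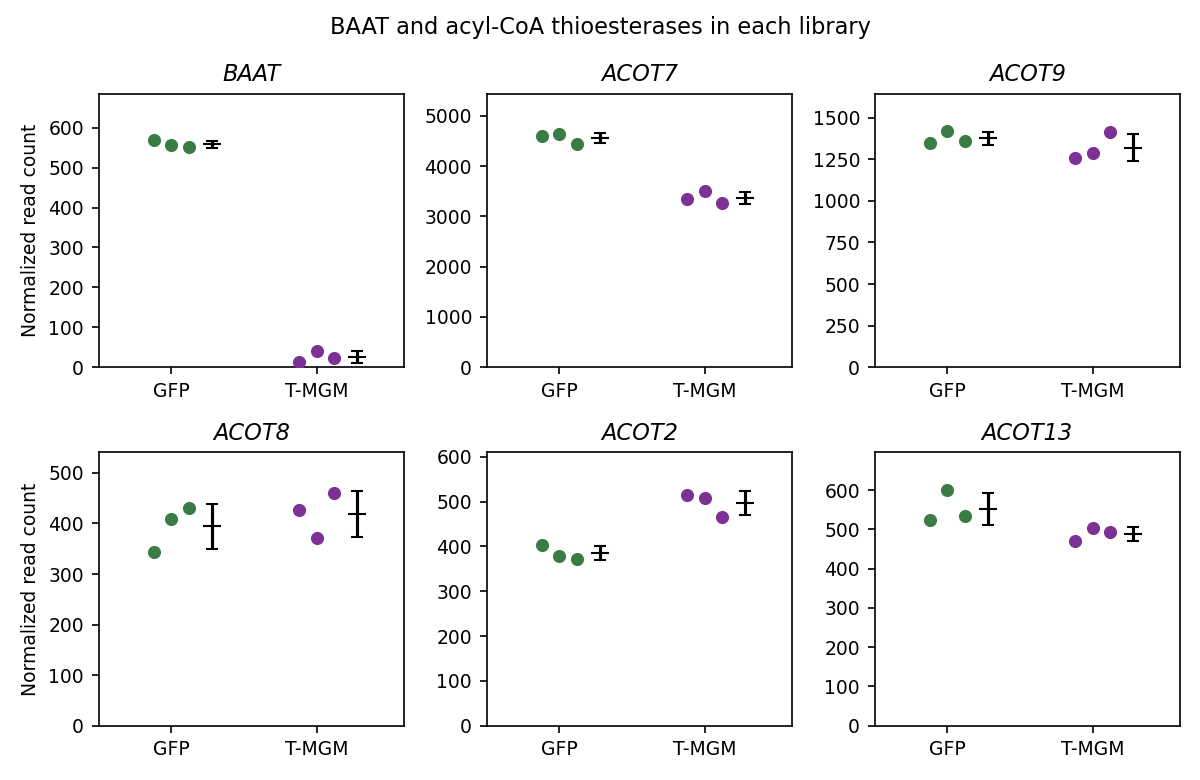
Normalized read counts of the 6 expressed genes in each library, 1 panel per gene on a linear axis from 0, with each point 1 library (GFP green, T-MGM purple) and the bar beside the points the mean ± SD of 3 libraries. BAAT dropped from 559 to 25.5 on average, whereas the other genes stayed within a log2 fold change of -0.44 to 0.37.

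ACOT1 and ACOT4 were at or near the floor of 3 counts, and no fold is given for them. ACOT1, the cytosolic type I enzyme (chromosome 14, 73537143 to 73543796, plus strand), had 1, 0 and 0 counts in GFP and 0, 0 and 5 in T-MGM libraries. ACOT4, the peroxisomal type I enzyme (chromosome 14, 73591873 to 73595766, plus strand), had a single count, in T-MGM library 2. The floor corresponded to 0.0506 to 0.0856 CPM (counts scaled to library depth), depending on the library. ACOT6, the last gene of the same 82.7 kb cluster, had 3 counts in GFP library 3 and none elsewhere, so ACOT2 was the one gene of the cluster with a measurable level.

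ACOT1 was low in both deposited tables. Of the reads counted for ACOT1 and ACOT2 together, ACOT1 took 0.297% in GFP library 1, 0.785% in T-MGM library 3 (exact Clopper-Pearson interval 0.255 to 1.82%) and none in the other 4 libraries, where the floor of 3 counts allows a share of up to 0.531 to 0.92% (exact upper limits 0.651 to 1.13%). In TPM, whose estimation by RSEM can divide shared reads between genes, the ACOT1 share reached at most 1.01% in any library.

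Of the 8 genes, 6 passed the filter of DESeq2 on low counts. Among these 6, 1 was called (4.63% of all genes tested), 3 passed the adjusted p alone (38.4%) and 4 did not overlap between groups (46.8%). Because the contrast chose BAAT, and the ACOT genes were added with earlier results of these data known, nothing is read from these counts.

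Levels between genes were compared in TPM. In GFP libraries the order was ACOT7 (69.4 ± 1.71), ACOT9, ACOT8, ACOT2 (5.73 ± 0.274), and then BAAT (4.39 ± 0.217) with ACOT13, which overlapped. BAAT, although a liver gene, was thus present in control cells at 4.62, 4.19 and 4.35 TPM, below every value of ACOT2 (5.42 to 5.93 TPM). In T-MGM libraries the order was the same down to ACOT2 (6.54 ± 0.569), with ACOT13 and then BAAT (0.193 ± 0.111) last, and no neighbours in that order overlapped. With 3 libraries a group, an exact permutation test can give no p under 0.1. The order below ACOT7 depended on the length used. In CPM per kilobase of annotated exon, 3 of the 6 ranks in GFP libraries were the same, with ACOT7 at 31.0 and ACOT9 at 5.25 first and ACOT8 at 2.16 last. In T-MGM libraries ACOT2 at 5.09 then stood above ACOT9 at 4.85, with overlapping libraries, and ACOT8 at 2.21 fell below ACOT13 at 2.56.

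The summed level of the 8 genes was 110.15, 115.73 and 110.56 TPM in GFP libraries and 82.54, 82.07 and 81.57 TPM in T-MGM libraries. The groups did not overlap, at 112 ± 3.11 and 82.1 ± 0.485 TPM (SD, n = 3 each). Most of the difference was ACOT7, whose TPM went from 69.4 ± 1.71 to 46.1 ± 2.30. In normalized counts ACOT7 differed by -26.2%. TPM values sum to nearly the same total in every library. The median gene nevertheless lay lower in T-MGM libraries, at -0.13 on log2 (TPM + 1) against -0.01 in the reported fit. The part of that shift in the summed level was not tested. The share of BAAT in the sum was 3.92 ± 0.287% in GFP and 0.236 ± 0.135% in T-MGM libraries, and that of ACOT2 was 5.12% and 7.96%. The ratio of ACOT2 to BAAT, both of the type I fold, was 1.27, 1.29 and 1.36 in GFP libraries and 76.1, 22.2 and 32.7 in T-MGM libraries.

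**Figure D2:**
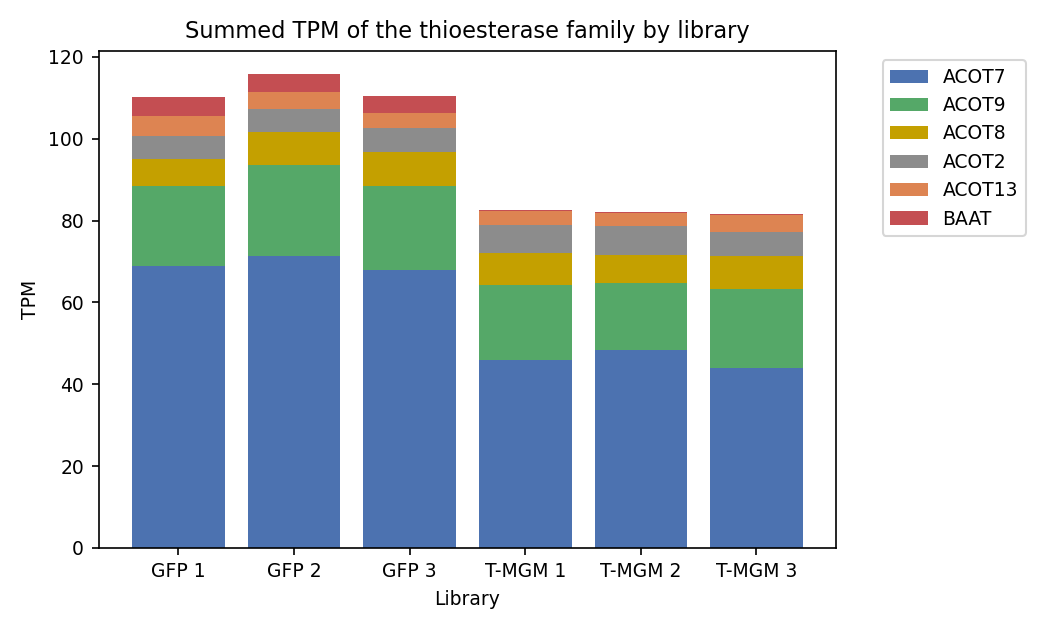
Summed TPM of the thioesterase genes in each library, with 1 stacked bar per library and 1 colour per gene, from 0 on a linear axis (ACOT1 and ACOT4 are too low to draw). GFP bars reach 110.15 to 115.73 TPM and T-MGM bars 81.57 to 82.54 TPM, with ACOT7 the largest part of each bar.

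The expressed genes beside BAAT had smaller values, but BAAT was chosen for the size of its fall, so that gap tests nothing. Within 1 Mb of BAAT, 5 genes averaged at least 50 normalized counts, with a median log2 fold change of -0.15 (range -0.37 to 0.06), and none of these 5 was called. Of the 5, 4 were lower at the DESeq2 adjusted p threshold, beside 3675 of all 19135 genes tested. The lowest, named after its value was seen, was the mitochondrial ribosomal protein gene MRPL50 at -0.37 (SE 0.09, adjusted p = 0.000147). Within 5 Mb, 44 genes averaged at least 50 normalized counts, with a median of -0.06 and 31 of them below 0. Over all 10 genes tested within 1 Mb, low counts included, the median was -0.35. Among these, PLPPR1, a neuronal membrane protein named after its value was seen, had -3.33 (SE 1.52, adjusted p = 0.0714) at 6.07 ± 3.66 and 0.650 ± 1.13 normalized counts (SD, n = 3 each). One called gene lay within BAAT itself. FYTTD1P1, a processed pseudogene on the same strand inside a BAAT intron, averaged 8.47 ± 3.59 normalized counts in GFP libraries and 0.650 ± 1.13 in those labelled T-MGM (SD, n = 3). It was lower by a log2 value of -3.82 (SE 1.39, DESeq2 adjusted p = 0.0176). Reads of the BAAT precursor RNA and of the pseudogene cannot be told apart there, and the call was lost without T-MGM library 1 (DESeq2 adjusted p = 0.0664) or 3 (0.0757).

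ACOT7, like BAAT, lay among genes that were mostly lower. Of 17 genes with a mean of at least 50 within 1 Mb, 15 had values below 0 and 12 were lower at the DESeq2 adjusted p threshold, beside 3675 of all 19135 genes tested. The median log2 fold change of the 17 was -0.28, against -0.44 for ACOT7 and -0.0027 for all genes tested. Over 88 genes within 5 Mb the median was -0.30. Over all 21 genes tested within 1 Mb, low counts included, it was -0.24. Named after their values were seen, RPL22, a ribosomal protein gene, had -0.47 (SE 0.02, adjusted p = 4.95e-159) and GPR153, an orphan receptor, -0.55 (SE 0.05, adjusted p = 2.13e-31). KCNAB2, a potassium channel subunit, and ESPN, an actin bundling protein, went the other way, at 1.26 (adjusted p = 3.52e-101) and 1.77 (adjusted p = 1.87e-56). The part of the region in the ACOT7 value was not tested.

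ACOT2 lay among genes that were mostly higher. The 20 genes with a mean of at least 50 within 1 Mb had a median of 0.17, and 72 genes within 5 Mb had a median of 0.18. Of the 20, 8 passed higher and 2 lower at the DESeq2 adjusted p threshold, beside 3675 higher and 3675 lower of all 19135 genes tested. The part of the region in the ACOT2 value was not tested. LTBP2, a matrix protein that binds latent TGF-β complexes, was called at 2.21 (SE 0.26, DESeq2 adjusted p = 5.53e-16). Medians within 1 Mb were 0.03 for 26 genes around ACOT8, 0.02 for 9 around ACOT9 and -0.05 for 7 around ACOT13. With low counts included they were -0.0046 (42 genes), -0.12 (13 genes) and 0.24 (13 genes), so the signs turned. Around ACOT13, 82 genes within 5 Mb had a median of 0.28, opposite in sign to ACOT13 itself.

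Across all of these regions, 10 of 133 genes tested within 1 Mb were called (7.52%, against 4.63% of all genes), and 26 of 559 within 5 Mb (4.65%). Besides those already named, ALDH5A1, which oxidises succinate semialdehyde, was called at 2.09 (adjusted p = 2.04e-11), DCDC2 at 2.39 (0.000527) and KIAA0319 at 1.25 (0.0101), all near ACOT13. PCYT1B, a phosphatidylcholine synthesis enzyme near ACOT9, was called at -2.90 (adjusted p = 8.17e-08). Near ACOT8, PLTP, the phospholipid transfer protein, was called at -1.59 (0.0293) and the protease MMP9 at 1.11 (0.0222), the latter with overlapping libraries. The PLTP call was lost in 5 of the 6 fits without 1 library (adjusted p 0.0658 to 0.144), the MMP9 call in 3 (0.102 to 0.268) and the KIAA0319 call in 2 (0.0621 and 0.0774). DCDC2 did not pass the adjusted p threshold in 1 of 14 alternative fits. All adjusted p in this paragraph are from DESeq2.

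**Figure D3:**
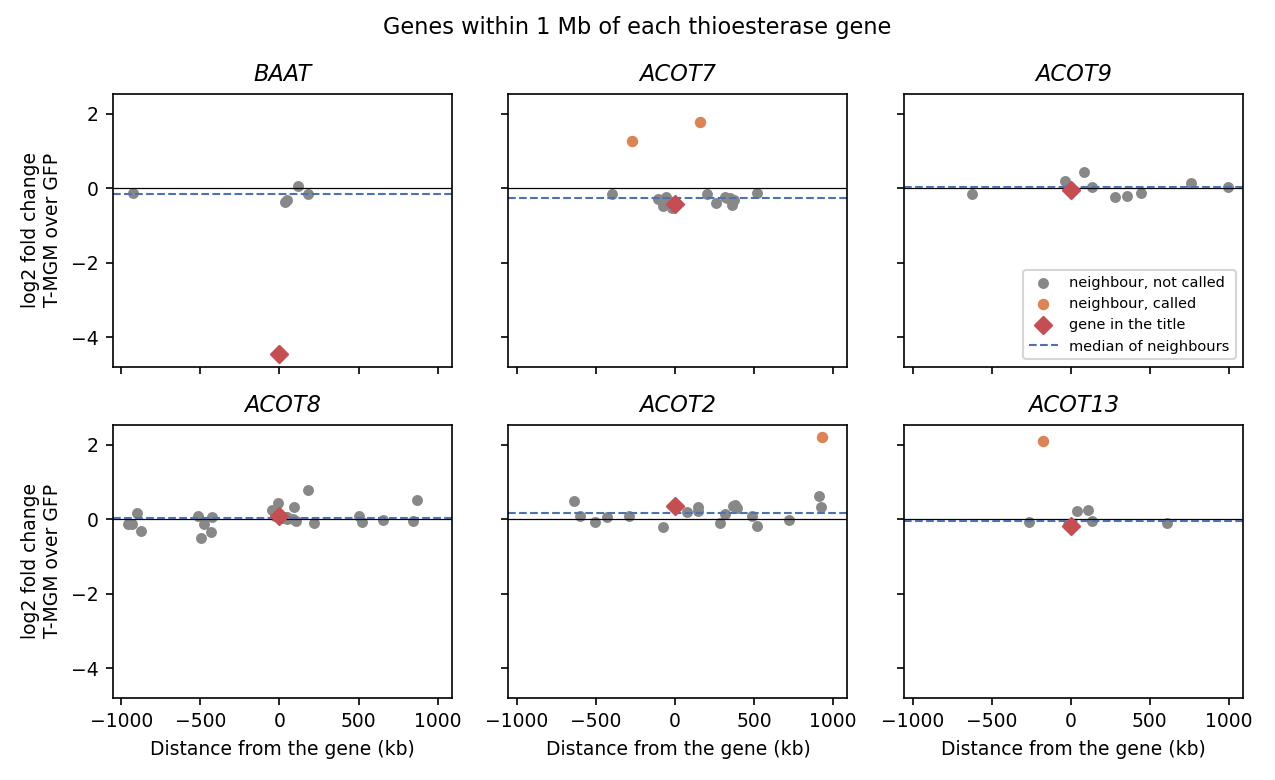
Log2 fold change, T-MGM over GFP, of genes averaging at least 50 normalized counts within 1 Mb, against distance in kb from each thioesterase gene. Diamonds mark the gene in the panel title and dashed lines the median of its neighbours, with BAAT at -4.46 against -0.15 and ACOT7 at -0.44 against -0.28. BAAT was chosen for its fall, so its gap to the neighbours tests nothing.

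Several genes overlap others on the opposite strand, and the sources name both a kit without and a kit with strand information. How reads in such overlaps were assigned is therefore uncertain. ACOT8 overlaps SNX21, a sorting nexin gene, over 1556 bases, and SNX21 was higher in T-MGM libraries (log2 value 0.43, SE 0.08, DESeq2 adjusted p = 1.47e-07). ACOT13 overlaps the end of C6orf62 over 205 bases, which was higher by 0.23 (SE 0.06, adjusted p = 0.00019). The long noncoding RNAs ENSG00000271746, over 213 bases of ACOT7, and ENSG00000272345, within ACOT13, had 0.21 (adjusted p = 0.672) and 0.85 (adjusted p = 0.23). HEATR4 across ACOT1 and ENSG00000258603 across ACOT2 and ACOT4 had no counts. Nor had TRMT112P4 and ENSG00000230328, the other pseudogenes within BAAT.

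The genes whose pattern over the 6 libraries was most like that of BAAT were sought by Euclidean distance of centred log2 (normalized count + 1) among 12648 genes. XKR8, a phospholipid scramblase that acts in apoptotic cells, was nearest (distance 0.93), with means of 105.9 ± 4.75 normalized counts in GFP libraries and 4.89 ± 1.13 in those labelled T-MGM (SD, n = 3). LIN7A (distance 1.02) went from 202 to 14.6 and SV2A (1.40) from 276 to 17.0 normalized counts. FOXD3, a neural crest transcription factor (1.59), went from 497 to 45.2, and IL1RAPL1, a synaptic adhesion receptor (1.77), from 539 to 44.4. Their log2 fold changes lay between -4.44 (XKR8) and -3.46 (FOXD3). Likeness to BAAT chose these genes, and the measure rests on 6 libraries in 2 groups.

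Genes of 11 connected pathways were then counted, from lists holding 154 genes. Of 105 tested, 54 passed the DESeq2 adjusted p threshold, 23 higher and 31 lower, beside 38.4% of all genes tested. Of the 105, 4 were called, 3 higher and 1 lower, beside 4.63% of all genes tested. The same shares of all genes stand beside the counts of each list below. Their median log2 fold change was -0.06, against -0.0027 for all genes tested.

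Among 8 other acyl-CoA thioesterase genes, 5 were tested, 2 passed higher and 2 lower, with a median of -0.11. THEM4, a mitochondrial thioesterase that was first described as a partner of the kinase AKT, was the one called. It had 3087, 3086 and 2931 normalized counts in GFP libraries and 1292, 1442 and 1318 in T-MGM libraries, with no overlap. Its log2 fold change was -1.17 (SE 0.04, DESeq2 adjusted p = 2.94e-147), smaller than that of BAAT and larger than that of any ACOT gene described above. ACOT11 was higher, from 190 ± 15.9 to 269 ± 12.9 normalized counts (SD, n = 3 each; 0.51, SE 0.13, adjusted p = 0.000442), but did not pass in the TPM fits (limma adjusted p 0.219 to 0.478). Of 10 acyl-protein and acyl-carrier thioesterases tested, 1 passed higher and 5 lower, none called. ABHD17C, which removes palmitate from proteins, had -0.68 (SE 0.08, adjusted p = 1.09e-15), and PPT1, which does so in lysosomes, had -0.24 (SE 0.03, adjusted p = 1.11e-18).

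Acyl-CoA synthetases make acyl-CoA, the substrate of thioesterases. Of 16 tested, 1 passed higher and 6 lower, beside 38.4% of all genes tested that passed. None was called, and the median was -0.26. ACSL3, a long-chain synthetase of lipid droplets and one of the 6, went from 32880 ± 280 to 22267 ± 10.1 normalized counts (SD, n = 3 each), which is -0.56 on the log2 scale (SE 0.01). ACSL4, which prefers arachidonic acid, had -0.23 (SE 0.03, DESeq2 adjusted p = 1.56e-14), which no longer passed after the joint correction for GC content and length (-0.05, adjusted p = 0.157). Of 6 acyl-CoA binding protein genes, 2 passed, both lower, and DBI, the founding member, had -0.60 (SE 0.03, adjusted p = 2.28e-90) and ACBD3, a Golgi protein, -0.22 (SE 0.03, adjusted p = 7.18e-11).

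Of 16 genes of bile acid synthesis and side chain oxidation, 11 were tested, 2 passed higher and 3 lower. CYP7A1, the rate-limiting enzyme of bile acid synthesis, was at or near the floor, as were CYP8B1, AKR1D1, the bile acid receptor gene NR1H4, the transporters SLC10A1 and ABCB11, and GLYAT, another acyl-CoA N-acyltransferase. SLC27A5, which makes the bile acyl-CoA that BAAT uses, had 178 ± 33.3 and 149 ± 31.2 normalized counts (SD, n = 3 each; log2 fold change -0.27, SE 0.18, DESeq2 adjusted p = 0.257), and the groups overlapped. CYP7B1 and CYP27A1, hydroxylases of the alternative route that were named after their values were seen, were well expressed and lower. CYP7B1 went from 2281 ± 61.1 to 1927 ± 86.3 normalized counts (SD, n = 3 each; -0.24, SE 0.04, DESeq2 adjusted p = 2.08e-07), and CYP27A1 from 892 ± 57.3 to 754 ± 53.7 (-0.24, SE 0.07, adjusted p = 0.00312). ACOX2, the peroxisomal oxidase of the bile acid side chain, was called, at 44.4, 52.0 and 35.4 normalized counts in GFP libraries and 85.8, 120 and 100.4 in those labelled T-MGM (1.21, SE 0.25, adjusted p = 8.59e-06). AMACR, a racemase of the same route, was higher by 0.47 (adjusted p = 1.74e-17) and SCP2, a peroxisomal thiolase and lipid carrier, had -0.31. AMACR did not pass in 1 of 16 alternative fits. Among bile acid receptors and transporters 5 of 18 were tested, and the export pumps ABCC2 (-0.88, adjusted p = 1.2e-05) and ABCC4 (-0.41, adjusted p = 3.23e-13) were lower. ABCC2 did not pass in the TPM fits (limma adjusted p 0.0556 to 0.217).

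For N-acyltransferases and the supply of the amino acid partners of BAAT, 3 of 7 genes tested passed higher and none lower. This stands beside 38.4% of all genes tested that passed, and the list median was 0.04. SLC6A9, a glycine transporter, was called, with 22.8, 29.2 and 44.5 normalized counts in GFP libraries and 171, 176 and 137 in those labelled T-MGM (2.32, SE 0.25, DESeq2 adjusted p = 1.84e-19). SLC6A6, the taurine transporter, was named after its values were seen. It went from 2224 ± 75.7 to 2622 ± 76.9 normalized counts (SD, n = 3 each; 0.24, SE 0.04, adjusted p = 2.34e-08). SHMT2, which makes glycine in mitochondria, was higher by 0.15 (adjusted p = 4.16e-09), but not in the TPM fits (0.03, limma adjusted p 0.553 to 0.641) or after the GC content and length correction (0.05, DESeq2 adjusted p = 0.0651).

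Fatty acid oxidation was mixed. Of 21 peroxisomal genes tested, 5 passed higher and 5 lower (median 0.06), and of 18 mitochondrial genes 8 passed higher and 3 lower (median 0.09). ACADVL, the very long-chain acyl-CoA dehydrogenase, was higher by 0.42 (DESeq2 adjusted p = 2.78e-40), whereas ACADM, the medium-chain enzyme, was lower (-0.37, adjusted p = 2.33e-16). ACADVL did not pass in 1 of 16 alternative fits, over which its value ran from 0.19 to 0.44. Of 10 PPAR and liver nuclear factor genes tested, 2 passed higher and 3 lower, among them the coactivator PPARGC1B (-0.48, adjusted p = 3.47e-16) and the retinoid receptor RXRG (-0.25, adjusted p = 5.3e-15). Among 5 PPAR target genes tested, 3 passed higher and 2 lower. ANGPTL4, an inhibitor of lipoprotein lipase, was called, going from 17.1 ± 3.17 to 118 ± 29.1 normalized counts (SD, n = 3 each; 2.79, SE 0.32, adjusted p = 2.67e-17).

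**Figure D4:**
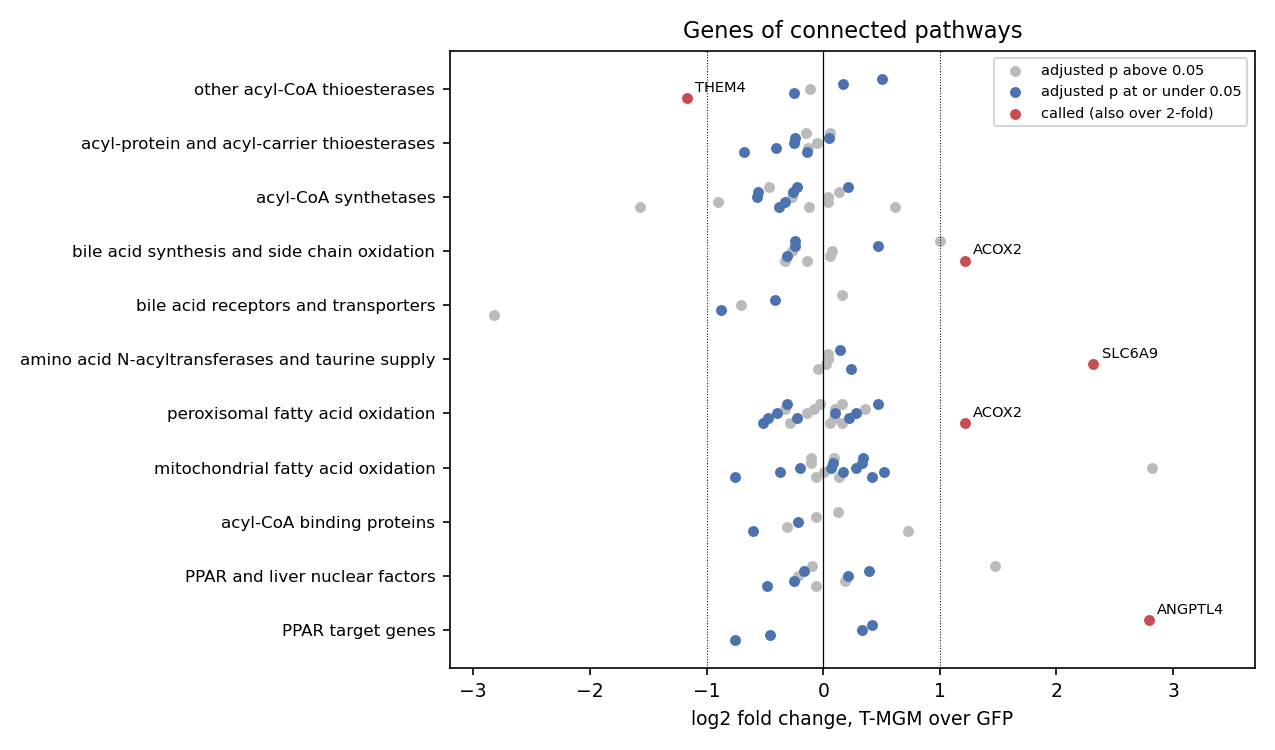
Log2 fold change, T-MGM over GFP, of each tested gene in 11 pathway lists, with 1 point per gene and list, grey above and blue at or under the adjusted p threshold of 0.05 (DESeq2), and red where called. The called genes are THEM4 at -1.17, ACOX2 at 1.21 (in 2 lists), SLC6A9 at 2.32 and ANGPTL4 at 2.79, and most other points lie within the dotted lines at a 2-fold change.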

How the data were processed

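RNA sequencing of 6 WM164 libraries was analysed, with groups and replicate numbers taken from the sample titles. Per the submitters' processing notes and the study's methods, the authors trimmed reads with cutadapt 1.8.1 and aligned them with STAR 2.7.7a to GRCh38. The deposited counts are whole numbers of uniquely aligned reads per gene, made by the authors with featureCounts and not normalized. The deposited TPM values were estimated by the authors with RSEM 1.3.0 and rounded to 2 decimals. The annotation release is not given in the sources used here, and the kit named in the labels is non-stranded whereas that in the methods keeps strand.

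The deposited counts were compared with DESeq2 1.42.0 in R 4.3.3, as the study's methods name it: group as the only term, 2-sided Wald test, no shrinkage, independent filtering, and Benjamini-Hochberg adjustment over all genes tested. Intervals of fold changes use the SE of DESeq2, are not adjusted for the number of genes, and are given as description rather than as tests. Floors and count intervals cover counting error only.

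The members, lists and tests were chosen with earlier results of these data known. Named genes were all members, called genes in each list or within 1 Mb of a member, the 2 list genes of smallest adjusted p with a mean of at least 50 normalized counts, overlapping genes, and the 5 genes most like BAAT. A few others, marked where they appear, were named after their values were seen. Also outside that rule were ACOT6, SLC27A5, and the list genes and markers given as at or near the floor. Positions are from GENCODE 44, which holds 99.4% of the gene identifiers, and promoter windows from RefSeq (GRCh38.p14), which gave none for ACOT1.

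Alternatives were edgeR 4.0.16 (quasi-likelihood, TMM), TMM or total-count scaling, a minimum of 10 counts in 3 libraries, a replicate block, no independent filtering, each library left out, and limma 3.58.1 on log2 (TPM + 1 or 0.1), with a filter and without. A correction for GC content and length was added after the data were seen. The steps were tested on simulated data.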

Additional observations from a re-analysis of the deposited data

How the results depend on the processing

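BAAT kept its direction under every alternative run. Its log2 fold change was -4.46 as reported and -2.18 on log2 (TPM + 1), with and without the filter, where the pseudocount bounds the change of a gene below 1 TPM. It was -4.00 with a pseudocount of 0.1, -4.35 after the GC content and length correction chosen after seeing the data, and -4.93 to -4.16 with 1 library left out. Genes called numbered 885 as reported (70.5% higher), 133 on log2 (TPM + 1), 126 without the filter and 369 with a pseudocount of 0.1, with 52.6%, 52.4% and 55.3% higher, and 765 to 810 with 1 library left out. Pathway list calls went from 4 to 1 on log2 (TPM + 1), with and without the filter, and were 4 to 6 with 1 library left out. Of 6 ranks of level in GFP libraries, 3 were the same per kilobase of exon. Called genes near the members went from 10 to 26 in the wider window. In the TPM fits the median of genes averaging at least 50 normalized counts lay at -0.13 to -0.15, against -0.01 in the reported fit and -0.06 under total-count scaling, and relative to that shift ACOT8 kept a value above the median. Replicate numbers did not pair the libraries (correlations of same-numbered deviations -0.007, -0.058 and 0.029). With the replicate block 735 genes were called and BAAT stood at -4.59, and not every library correlated best with its own number. Low counts limit ACOT1, ACOT4 and the residual BAAT level.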
